A study of Mus musculus with 6 samples.

Results

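The hormones and receptors of the AMH, inhibin, activin and follicle-stimulating hormone (FSH) axis were followed in the testes of mice at 5 days postpartum (dpp). The set held 10 of the 54532 genes in the expression table, chosen by gene symbol: *Amh*, *Inha*, *Inhba*, *Inhbb*, *Fst*, *Amhr2*, *Fshr*, *Acvr1*, *Acvr2a* and *Acvr2b*. All 10 were detected in every sample and all 10 passed the filter on low values. RNA from whole testes had been sequenced in 3 control (Ctrl) and 3 conditional knockout (cKO) samples, all mouse testis. The cKO mice were *Vasa*-Cre *Srsf1* Fl/del, a line in which Cre recombinase, under control of *Vasa* (*Ddx4*), acts in germ cells and removes loxP-flanked exons of the splicing factor gene *Srsf1* there. The Ctrl genotype is given only as Ctrl in the labels, and the labels name no strain or other agent for either group. The study's methods call the samples of a group biological replicates, but whether a library came from 1 animal or from pooled animals is not given in the sources used here. Values of single samples are given in the order of replicates 1, 2 and 3. The cKO genotype names 1 allele as del, and whether somatic cells carried that deleted allele is not given in the sources used here. A difference in *Srsf1* dose in somatic cells therefore cannot be told apart from the deletion in germ cells. The comparison asked how the transcripts of this somatic hormone axis stood in cKO testes beside Ctrl testes.

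Sertoli cells, the somatic cells that surround germ cells in the seminiferous cords, secrete anti-Müllerian hormone (AMH) and inhibin in the young testis and carry the FSH receptor. An inhibin joins an α subunit to a β subunit, an activin joins β subunits to each other, and follistatin binds activin and holds it away from its receptors. These ligands belong to the TGF-β family and signal through pairs of type I and type II receptor kinases to SMAD proteins, while the FSH receptor signals mainly through cyclic AMP.

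The members lie on 7 chromosomes of the mouse genome build GRCm38. *Amh* is at chr10:80805243-80807648 and *Amhr2* at chr15:102445367-102454633. The subunit genes are *Inha* at chr1:75507077-75510366, *Inhbb* at chr1:119415465-119422248 and *Inhba* at chr13:16011851-16031621. *Fst* is at chr13:114452290-114458951, *Fshr* at chr17:88985170-89200612, *Acvr1* at chr2:58388644-58567157, *Acvr2a* at chr2:48814109-48903269 and *Acvr2b* at chr9:119402118-119434995. Of the 10, *Inhba*, *Fst*, *Acvr1*, *Acvr2a* and *Acvr2b* overlap genes of the opposite strand, and the counting is not stated to have used strand, so shared reads cannot be told apart. The partner of *Acvr2a* is *Orc4*, listed at up to 9.23 FPKM (a fragment count per unit of gene length and sequencing depth), whereas the partners of the other 4 reached at most 0.521 FPKM. The length used for *Fshr* in the table was 2079 bases against 2360 in GENCODE release M21, which bears on the level of *Fshr* beside other genes but not on its difference between groups.

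Promoter windows from RefSeq (GRCm38.p6) were at hand for 8 of the 10 members, the exceptions being *Amh* and *Fst*. The windows of *Inha* (chr1:75507359-75507658) and *Acvr1* (chr2:58566779-58567078) lie wholly inside the gene spans given above. For *Inha* and *Acvr1* the bases before the start of the span were therefore not searched. The 250 bases before the RefSeq start site are shown for *Inhba*, the member that stood farthest apart between groups relative to its spread, and for *Amhr2*, the member whose window held a searched motif. Both are on the plus strand, at chr13:16011601-16011850 and chr15:102445117-102445366, and capitals mark a match to AAGGTCA, the binding motif of the nuclear receptor SF-1.
Inhba: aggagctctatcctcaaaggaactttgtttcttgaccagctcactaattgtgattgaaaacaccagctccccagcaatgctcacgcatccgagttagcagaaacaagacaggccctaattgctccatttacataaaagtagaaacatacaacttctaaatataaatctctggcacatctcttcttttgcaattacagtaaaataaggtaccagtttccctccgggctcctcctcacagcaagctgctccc
Amhr2: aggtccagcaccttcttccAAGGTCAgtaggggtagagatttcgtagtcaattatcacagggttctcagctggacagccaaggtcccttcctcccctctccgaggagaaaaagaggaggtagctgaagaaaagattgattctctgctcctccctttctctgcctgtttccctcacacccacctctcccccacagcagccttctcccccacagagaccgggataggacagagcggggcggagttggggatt
The match in *Amhr2* begins 231 bases before the start. Over windows of 300 bases and on both strands, AAGGTCA was found in 1 of the 8 member windows and in 4.72% of all 32851 windows. None of the 8 held AACAAT for SOX proteins (10.7% of all windows), AGATAA for GATA factors (11.2%), TGACGTCA for cyclic AMP response elements (1.79%) or CAGACA for SMAD proteins (21.04%). A match is a run of letters and not a measured binding site, and a window without one says nothing of the factor.

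Recovered depth was 15448191 to 18964743 reads per library. *Srsf1* was at 82.1, 89.1 and 88.4 FPKM in the Ctrl testes against 45.1, 46.3 and 51.6 FPKM in the cKO testes, so the libraries matched their labels, with an adjusted p of 0.0578 by limma over all genes and 0.016 over protein-coding genes alone. Of 18 germ-cell markers tested, 17 were lower in cKO, and their summed level was 181 to 473 FPKM in Ctrl and 49.5 to 94.0 FPKM in cKO. Ctrl 2 stood apart, where a germ-cell marker averaged 172% of its Ctrl mean, against 67.3% and 61.2% in Ctrl 1 and Ctrl 3. Sertoli-cell markers summed to 2600 to 3317 FPKM in Ctrl and 2574 to 3035 FPKM in cKO, with Ctrl 2 the lowest of the Ctrl libraries. The labels name testis as tissue while their extraction text speaks of retinas, but 0 of 12 retina markers passed the filter and none exceeded 0.311 FPKM. In whole testes, fewer cells of a type and less RNA per cell cannot be told apart, and the part of cell makeup in the differences below was not tested.

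**Figure D1:**
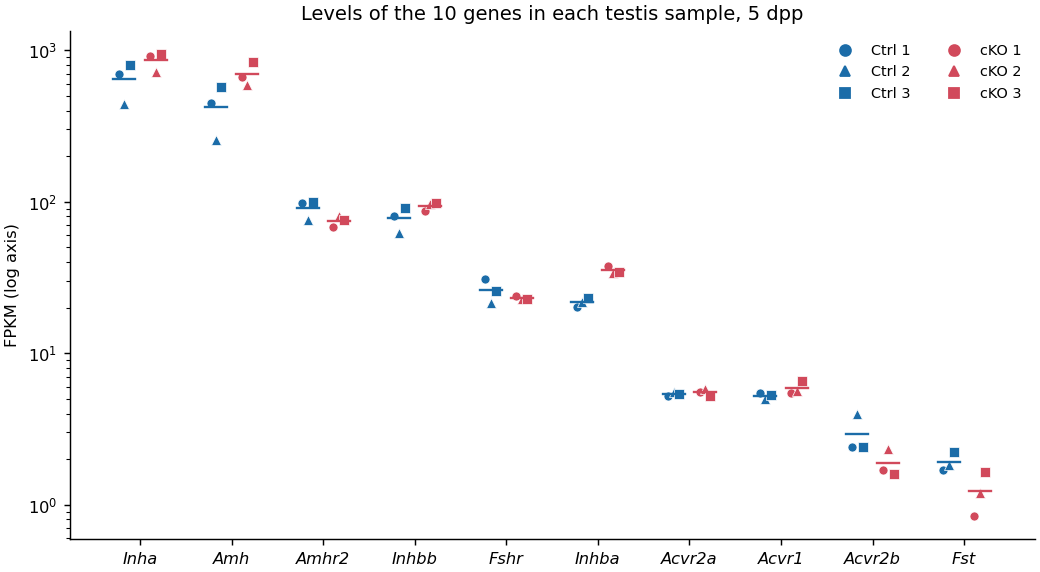
Level of each of the 10 members in the 3 Ctrl and 3 cKO testes, in FPKM on a log axis; points are samples and bars are group means. *Inha* and *Amh* lie highest, at 257 to 939.8 FPKM, and *Fst* and *Acvr2b* lowest, at 0.845 to 3.98 FPKM.

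The members spanned more than 2 orders of magnitude of FPKM, a scale per gene length that allows levels of different genes to be compared. *Inha*, the inhibin α subunit, was the most abundant member at 645.6 ± 187 FPKM in Ctrl (SD, n = 3), followed by *Amh* at 425 ± 158 FPKM. Among all genes ranked by FPKM within a library, *Inha* took places 18 to 70 and *Amh* places 27 to 146. Next came *Amhr2* at 91.4 ± 13.4, *Inhbb* at 78.0 ± 14.2, *Fshr* at 26.1 ± 4.87 and *Inhba* at 21.8 ± 1.42 FPKM. The receptor genes *Acvr2a*, *Acvr1* and *Acvr2b* averaged 5.41, 5.25 and 2.92 FPKM, and *Fst* was the lowest at 1.92 ± 0.29 FPKM. In Ctrl the neighbours *Inha* and *Amh*, *Amhr2* and *Inhbb*, *Fshr* and *Inhba*, and *Acvr2a* and *Acvr1* overlapped in their samples, while the other neighbours in the order were apart. In cKO *Inhba* stood above *Fshr*, at 33.8 to 37.9 against 22.7 to 23.9 FPKM, whereas in Ctrl the ranges of the pair overlapped. *Inhbb* likewise stood above *Amhr2* in cKO, and *Acvr2b* and *Fst* overlapped there. Together the 10 genes took 0.260%, 0.177% and 0.301% of all reads in the Ctrl testes against 0.339%, 0.298% and 0.362% in the cKO testes.

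*Inhba*, which encodes the βA subunit of activin A and inhibin A, had the clearest difference. Its level was 20.3, 21.9 and 23.1 FPKM in the Ctrl testes against 37.9, 33.8 and 34.6 FPKM in the cKO testes. Every cKO sample lay above every Ctrl sample, and within each group the samples differed by 6.53% (Ctrl) and 6.07% (cKO) as coefficient of variation. The cKO mean of 35.4 ± 2.15 FPKM was 163% of the Ctrl mean, a log2 difference of 0.68 (SE 0.09, 95% interval 0.47 to 0.88) on the log2(FPKM + 1) scale. By limma over 16206 genes the adjusted p was 0.0655 (unadjusted 9.09e-05), which missed the threshold of 0.05, and 0 genes of the table were called (1508 lower and 1069 higher at an unadjusted p under 0.05). Over the 13204 protein-coding genes alone the adjusted p of *Inhba* was 0.0214, with 1.61% of those genes called (0.28% higher), and by limma voom on recovered reads it was 0.0302, with 0.512% called (0.136% higher). The difference was as large without Ctrl 2, at 0.68, and ran from 0.63 to 0.76 over 21 alternatives, of which 6 called it.

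*Inhbb* encodes the βB subunit, shared by activin B and inhibin B. It was at 81.1, 62.5 and 90.4 FPKM in the Ctrl testes against 87.4, 96.3 and 97.7 FPKM in the cKO testes. The groups overlapped, since Ctrl 3 was above cKO 1, and Ctrl 2 was the lowest sample. The log2 difference of 0.28 (95% interval -0.05 to 0.61) did not pass by limma (adjusted p = 0.392) and was 0.13 without Ctrl 2. *Inha* showed a like arrangement, at 694, 439 and 803 FPKM in the Ctrl testes against 917, 718 and 939.8 FPKM in the cKO testes. Ctrl 2 was again the lowest and Ctrl 3 lay above cKO 2. The *Inha* difference was 0.44 (95% interval -0.11 to 1.00, adjusted p = 0.412 by limma) and 0.19 without Ctrl 2.

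*Amh*, the Sertoli-cell hormone that makes the Müllerian ducts regress in males, was higher in every cKO sample. Its level was 448, 257 and 569 FPKM in the Ctrl testes against 665, 590.5 and 837 FPKM in the cKO testes. The closest pair was Ctrl 3 and cKO 2, and the Ctrl samples spread widely, with a coefficient of variation of 37.1%. The log2 difference was 0.77 (SE 0.29, 95% interval 0.09 to 1.46), with an adjusted p of 0.276 by limma (unadjusted 0.0316). Without Ctrl 2, the Ctrl library with the highest germ-cell markers, it was 0.45, with the groups still apart.

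*Amhr2*, the type II receptor that binds AMH, had the lower mean in cKO. It was at 98.1, 76.1 and 100.1 FPKM in the Ctrl testes against 68.4, 81.0 and 76.2 FPKM in the cKO testes. Ctrl 1 and Ctrl 3 lay above all cKO samples and Ctrl 2 lay among them. The log2 difference was -0.27 (95% interval -0.57 to 0.03, adjusted p = 0.361 by limma). Without Ctrl 2 the groups were apart and the difference was -0.40 with an adjusted p of 0.250. Of all tested genes, 29.4% were apart without Ctrl 2, against 23.1% with it.

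*Fst* encodes follistatin, the secreted protein that binds activin. It was at 1.70, 1.82 and 2.25 FPKM in the Ctrl testes against 0.845, 1.19 and 1.65 FPKM in the cKO testes, from 61 to 171 reads per library. All cKO samples were below all Ctrl samples, cKO 3 by a small margin. The log2 difference was -0.40 (95% interval -0.79 to -0.02) with an adjusted p of 0.2999 by limma (unadjusted 0.0418), and voom, which adds no pseudocount of 1 FPKM, gave -0.69.

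The type II receptors for activin and the type I receptor gene *Acvr1* were low in both groups. *Acvr2b* was at 2.39, 3.98 and 2.39 FPKM in the Ctrl testes against 1.70, 2.35 and 1.598 FPKM in the cKO testes, from 97 to 298 reads. The groups did not overlap, although cKO 2 was only just below Ctrl 1 and Ctrl 3, and Ctrl 2 was the highest. The difference was -0.43 (95% interval -0.87 to 0.01, adjusted p = 0.319 by limma), and -0.24 without Ctrl 2. *Acvr2a* was at 5.24 to 5.59 FPKM in Ctrl and 5.23 to 5.81 FPKM in cKO, a difference of 0.02 (95% interval -0.17 to 0.22). *Acvr1* was at 4.99 to 5.50 FPKM in Ctrl and 5.44 to 6.55 FPKM in cKO, a difference of 0.13 (95% interval -0.09 to 0.36). Both overlapped between groups, with adjusted p of 0.915 and 0.532 by limma, and without cKO 3, its highest sample, the *Acvr1* difference was 0.06.

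*Fshr*, the Sertoli-cell receptor for pituitary FSH, was at 31.1, 21.4 and 25.8 FPKM in the Ctrl testes against 23.9, 22.7 and 22.9 FPKM in the cKO testes. The cKO samples lay close together within the range of the Ctrl samples, between Ctrl 2 and Ctrl 3. The log2 difference was -0.15 (95% interval -0.46 to 0.16, adjusted p = 0.603 by limma). It was -0.28 without Ctrl 2 and -0.02 without Ctrl 1, the lowest and the highest Ctrl sample. Without Ctrl 2 the groups were apart (adjusted p = 0.395 by limma), as were 29.4% of all tested genes.

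**Figure D2:**
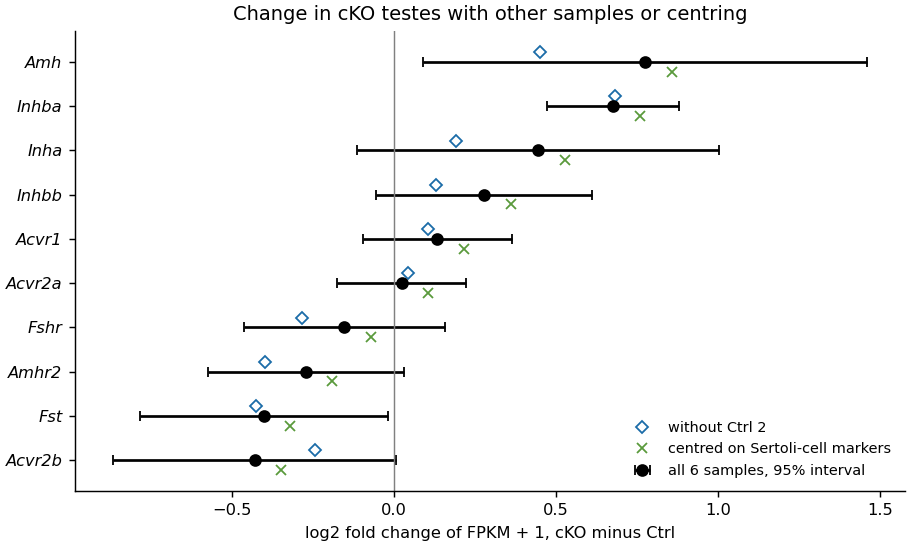
Log2 difference of cKO minus Ctrl for the 10 members on the log2(FPKM + 1) scale. Filled points with 95% intervals from limma are for all 6 samples. Diamonds are without Ctrl 2 and crosses are centred on Sertoli-cell markers, both drawn without intervals. The interval of *Inhba* lies farthest from 0 relative to its width, and *Amh* drops from 0.77 to 0.45 without Ctrl 2.

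By limma with all genes adjusted together, 0 of the 10 members passed the threshold, as did 0% of all tested genes. At an unadjusted p under 0.05 there were 3 members, *Amh* and *Inhba* higher and *Fst* lower, against 15.9% of all tested genes (6.6% higher and 9.31% lower). The groups did not overlap in 4 of the 10, *Amh* and *Inhba* higher and *Fst* and *Acvr2b* lower, against 23.1% of all tested genes (10.3% higher and 12.8% lower). In all, 6 members had a higher and 4 a lower mean in cKO, and the median log2 difference was 0.08 against 0.00 over all tested genes. With protein-coding genes alone and with voom, 1 of the 10 passed, *Inhba* in both.

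**Figure D3:**
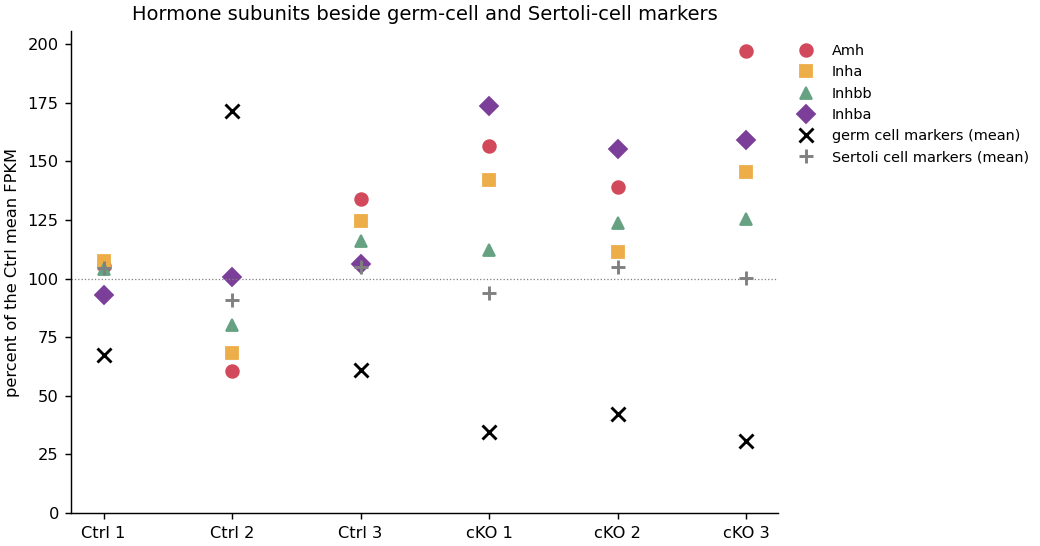
Level of *Amh*, *Inha*, *Inhbb* and *Inhba* in each sample as a percentage of the Ctrl mean, beside the germ-cell and Sertoli-cell marker lists. Ctrl 2 lies at 60.4% for *Amh* and 68.1% for *Inha*, while the germ-cell list there is at 172%.

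Sample by sample, *Amh*, *Inha*, *Inhbb*, *Fshr* and *Acvr1* each had their lowest Ctrl value in Ctrl 2, at 60.4%, 68.1%, 80.2%, 82.0% and 95.02% of the Ctrl mean, and *Amhr2* was also lowest there at 83.2%. *Inhba* in Ctrl 2 was at 101% and *Acvr2b* at 136%. *Amh*, *Inha*, *Inhba*, *Inhbb* and *Fshr* were set against the mean log2 level of 16 Sertoli-cell markers in the same sample. Which cells held these transcripts was not tested, so a difference on this scale is not a difference per Sertoli cell. On that scale *Inhba* was higher by 0.76, *Amh* by 0.86 and *Inhbb* by 0.36 in log2, each with all cKO samples above all Ctrl samples (exact permutation p = 0.1 each, the smallest that 3 against 3 allows, adjusted p = 0.167). This centring moved the median of all tested genes to 0.08, and 15.4% of them were higher without overlap on that scale (20% in either direction), against 10.3% before it. *Inha* was higher by 0.53 with overlap (exact permutation p = 0.2), and *Fshr* differed by -0.07 with overlap (p = 0.7). The marker list was itself not uniform. *Cldn11*, a tight-junction gene, and *Gata1*, a transcription factor, were lower by 0.99 and 0.87, *Hsd17b1*, which encodes a steroid dehydrogenase, was higher by 0.69, and of the 15 markers that passed the filter 9 were lower and 6 higher. Beside these, Leydig-cell markers summed to 616 to 807 FPKM in Ctrl and 851 to 961 FPKM in cKO, endothelial markers to 53.2 to 62.3 and 70.4 to 76.6 FPKM, and peritubular myoid markers to 522 to 526 and 339.8 to 513 FPKM. Macrophage markers (60.2 to 79.4 and 68.5 to 82.2 FPKM), red-cell markers (438 to 697 and 526 to 1479 FPKM) and markers of rete testis and ducts (1.92 to 3.14 and 2.43 to 4.395 FPKM) overlapped between groups. A sum weighs the most abundant markers most. As a mean percentage of the Ctrl mean, peritubular myoid markers were at 109% in cKO 3, above the Ctrl range of 96.0% to 104%. Leydig-cell markers overlapped on that measure, at 112% in cKO 2 against 133% in Ctrl 3. Their mean log2(FPKM + 1) did not overlap, at 4.61 to 4.90 in Ctrl and 4.92 to 5.04 in cKO. The part of these cell types in the members' differences was not tested.

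**Figure D4:**
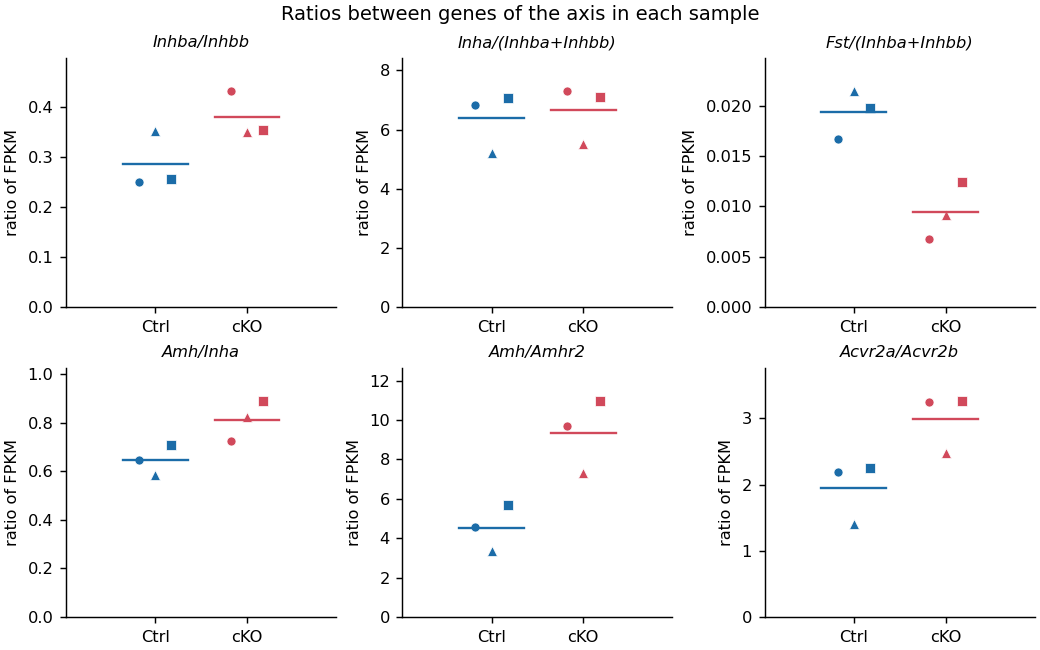
Ratios between members in each sample, in FPKM over FPKM, with group means. The *Amh*/*Amhr2* ratio lies at 3.37 to 5.69 in Ctrl and 7.29 to 11.0 in cKO, and *Inhba*/*Inhbb* overlaps at 0.351.

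Ratios between members of the same library do not depend on the scaling between libraries. *Amh* over its receptor *Amhr2* was 4.57, 3.37 and 5.69 in the Ctrl testes against 9.72, 7.29 and 11.0 in the cKO testes, a log2 difference of 1.05. All cKO samples were above all Ctrl samples. *Amh* over *Inha* was 0.584 to 0.709 in Ctrl and 0.725 to 0.891 in cKO, without overlap, although both genes shared the low values of Ctrl 2. *Fst* over the summed β subunits was 0.0194 ± 0.0024 in Ctrl and 0.0094 ± 0.0029 in cKO (SD, n = 3), a log2 difference of -1.07 without overlap. *Acvr2a* over *Acvr2b* was 1.403 to 2.25 in Ctrl and 2.48 to 3.27 in cKO, also apart. These 4 ratios each gave an exact permutation p of 0.1, the smallest possible, and 0.15 after adjustment over the 6 ratios. Each combines differences of single members given above and adds no separate measurement. How many ratios of other gene pairs were apart was not computed, while 23.1% of single tested genes were. *Inhba* over *Inhbb* was 0.250, 0.351 and 0.256 in the Ctrl testes against 0.433, 0.351 and 0.354 in the cKO testes, and Ctrl 2 and cKO 2 met at 0.351 (exact permutation p = 0.2). The ratio of *Inha* to both β subunits was 5.20 to 7.08 in Ctrl and 5.52 to 7.32 in cKO and did not separate the groups (exact permutation p = 0.5).

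The genes nearest to the members in their pattern over the 6 samples were found among 8242 protein-coding genes of at least 5 FPKM, by the root mean square difference of centred log2(FPKM + 1). For *Inhba* they were *Spats2l*, *Cd24a* and *Prrx2*, at 0.06, 0.09 and 0.11 against a median of 0.37. For *Amh* they were *Cebpa*, *Hsd17b1* and *Cadm4*, at 0.12, 0.16 and 0.18 against 0.54. *Inha* had *Cadm4*, *Vegfa* and *Pyroxd2* nearest (0.10 each, median 0.38), *Inhbb* had *Zfp395*, *Ptges* and *Eml2* (0.03 to 0.04, median 0.24), and *Fshr* had *Stom*, *Elovl5* and *Msn* (0.03 to 0.05, median 0.22). The points share 6 libraries, and a small value states likeness over those alone.

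**Figure D5:**
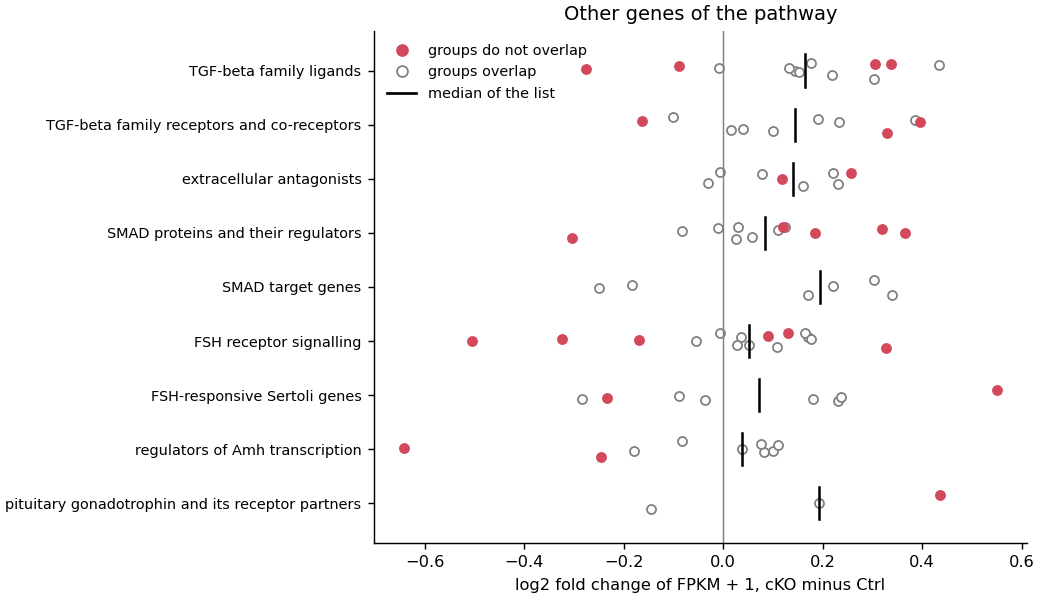
Log2 difference of cKO minus Ctrl for tested genes of the pathway lists around the axis, on the log2(FPKM + 1) scale; each point is a gene and each bar a list median. List medians lie between 0.04 and 0.20, and *Dmrt1* is the lowest point at -0.64.

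Around the members, 9 lists of pathway genes were read from the same fit, and 0 genes of any list passed the threshold by limma, by limma on protein-coding genes or by voom. Of all tested genes, 50.5% had a higher mean log2 level in cKO, 10.3% were higher without overlap and 12.8% lower without overlap. Among TGF-β family ligands other than the members, 9 of 12 tested genes were higher, the median difference was 0.16, and the groups did not overlap for 2 higher and 2 lower genes. *Gdf11*, a ligand that signals through activin receptors, was at 1.95 to 2.33 FPKM in Ctrl and 2.44 to 3.36 in cKO, while *Tgfb3* differed by -0.09. Receptors and co-receptors were higher in 8 of 10, with *Acvr1b*, the type I receptor for activin, at 10.7 to 12.0 against 12.2 to 16.8 FPKM, and *Acvrl1*, a receptor of endothelial cells, at 15.5 to 23.2 against 25.7 to 28.0 FPKM. *Bmpr1a*, a type I receptor for bone morphogenetic proteins, was lower by 0.16. Extracellular antagonists were higher in 6 of 8, among them *Twsg1*, which binds bone morphogenetic proteins (0.12). SMAD proteins and their regulators were higher in 9 of 12, of which 4 had groups apart, with the inhibitory *Smad6* and *Smad7* at 0.36 and 0.32 and the SMAD anchor *Zfyve9* at -0.30. Of 6 SMAD target genes, 4 were higher and none was free of overlap.

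Of the genes downstream of the FSH receptor, 10 of 15 were higher with a median of 0.05. *Pde4b*, which breaks down cyclic AMP, was at 1.601 to 2.32 FPKM in Ctrl and 0.885 to 1.27 in cKO, and the arrestins *Arrb1* and *Arrb2*, which bind active receptors, differed by 0.33 and -0.33. FSH-responsive Sertoli genes split 4 higher and 4 lower, with *Gdnf*, the growth factor for spermatogonial stem cells, at 5.85 to 11.4 against 12.3 to 13.2 FPKM, and *Kitl*, the ligand of KIT, at 58.5 to 67.2 against 51.1 to 58.3 FPKM. Among regulators of *Amh* transcription, *Sox9*, *Sox8*, *Nr5a1*, *Gata4*, *Wt1* and *Zfpm2* overlapped between groups. *Dmrt1*, a transcription factor of Sertoli and germ cells, was at 70.0, 84.7 and 73.7 FPKM in the Ctrl testes against 39.5, 59.2 and 48.1 in the cKO testes (-0.64, adjusted p = 0.145 by limma), and *Nr0b1* was lower by 0.24. *Lhcgr*, the luteinizing hormone receptor of Leydig cells, was higher by 0.44, while *Fshb*, the pituitary FSH subunit, was listed at 0 in every sample.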

How the data were processed

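Groups and replicate numbers were taken from the labels of 6 testis samples, 3 Ctrl and 3 cKO. According to the study's methods and the labels, polyadenylated RNA was sequenced, reads were aligned with HISAT2 2.0.5 to mm10, counted with featureCounts and turned into FPKM, the unit in which the authors deposited 1 table of 54532 genes. FPKM times gene length gave whole multiples of 1 step per library (100% of values within 0.01), so reads per gene were recovered; the deposited scale matched median-of-ratios factors to 2.07e-11. Floors of 3 reads for a gene of 1 kb, 0.158 to 0.194 FPKM, cover counting error only.

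log2(FPKM + 1) was tested with limma 3.58.1 (R 4.3.3, eBayes with trend, two-sided, Benjamini-Hochberg, threshold 0.05) for the 16206 genes averaging 0.5 FPKM or more, on a scale that understates changes of low genes. Ratios and marker-centred values used exact two-sided permutation (SciPy 1.17.1). The fit was tested on simulated data. Named genes were the members, *Srsf1*, up to 3 genes a pathway list without overlap and of at least 1 FPKM, the 3 nearest genes by pattern, and markers. Members and lists were chosen with earlier results of these data known. Alternatives covered pseudocount, filter, scaling, gene type, trend, weights, block, voom and leaving out samples; 2, named below, were added after the data were seen. A planned comparison of member proteins was not run, and some genes of the lists are not reported here.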

Additional observations from a re-analysis of the deposited data

How the results depend on the processing

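All 10 members kept their direction over 21 alternatives apart from *Acvr2a*, at -0.0089 without cKO 2 (range with 1 library left out -0.0089 to 0.0562). The count of genes called, 0 lower and 0 higher, became 1 and 4 with TPM, 176 and 37 with protein-coding genes alone, 55 and 13 with sample weights, 61 and 22 with voom and 194 and 60 with voom on protein-coding genes; 2 higher were called when centred on Sertoli markers and 1 without trend. With 1 library left out the ranges were 0 to 15 lower and 0 to 3 higher. In 2 alternatives chosen after seeing the data, Ctrl 2 was left out as well, giving 159 and 27 (protein-coding) and 135 and 17 (voom).

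The count of members called became 1, *Inhba*, with protein-coding genes alone, sample weights, voom, voom on protein-coding genes and both added alternatives. *Srsf1* then passed at -0.85 (protein-coding), -0.88 (weights), -0.86 (both voom fits), -0.83 and -0.84 (added), and at -0.86 with TPM; the adjusted p ran from 0.0119 to 0.225 over its alternatives. The cause was not tested. Against the median of the Sertoli list, *Inhbb* differed by 0.51 and *Fshr* by 0.0815; *Fshr* ran from -0.126 to 0.0192 with 1 library left out. *Inha* over the β subunits ran from -0.0778 to 0.191 with 1 library left out, with -0.0778 without Ctrl 2 and -0.0131 without cKO 1.

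Whether the replicate numbers pair the samples was not settled. Over all tested genes, same-numbered samples correlated at 0.07, 0.02 and 0.09 in their deviations, and differently numbered samples were not compared. *Amh*, *Inha*, *Fst* and *Fshr* ranked their replicates alike in both groups, and the other members did not. Blocking on the number lowered the SE of *Amh* from 0.29 to 0.16 and that of *Inha* from 0.24 to 0.13. The SE of *Inhba* was 0.09 with and without it. With the number as a replicate block, 84 genes were lower and 14 higher, *Srsf1* was at -0.85 (adjusted p = 0.0326 by limma), *Inhba* had an adjusted p of 0.0703 and 0 members were called. Depth limits *Fst* and *Acvr2b*, with as few as 61 and 97 reads.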

Other observations

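Of 23 TGF-β family ligands listed beside the members, 11 were under the filter and had no test. Among these *Lefty2*, an antagonist of Nodal signalling, was singled out after its values were seen. It had 3, 8 and 3 reads in the Ctrl testes against 22, 15 and 23 in the cKO testes, or 0.071, 0.161 and 0.069 FPKM against 0.536, 0.344 and 0.570 FPKM. All cKO samples were above all Ctrl samples, from counts that are small in every library.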
